A study of Oncorhynchus mykiss with 42 samples.

Results

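FSH and LH, the 2 pituitary gonadotropins, were set against each other in cultured rainbow trout testis by taking every array titled FSH and every array titled LH. These were 24 of the 42 arrays of the series, with 6 FSH and 6 LH arrays from testes at stage I-II and 6 of each at stage III. Another 12 arrays of tissue cultured without hormone (Ctrl, 6 per stage) were used to say which hormone moved a clone away from the cultured state. The 6 arrays of tissue taken before culture entered no comparison given here. The testes came from an all-male population of rainbow trout (Oncorhynchus mykiss), and FSH or LH, both purified from salmonids, was present at 500 ng/mL. All cultured groups shared 96 h of incubation at 12 °C as fragments of whole testis, with new medium at 48 h. The labels describe the 6 arrays of a group as replicate incubations and do not tie them to fish, so p-values measure the spread between these incubations only.

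Gonadotropins are glycoprotein hormones made of a common alpha subunit and a beta subunit that sets which receptor they bind. Their receptors, FSHR and LHCGR, couple to G proteins and raise cyclic AMP in the somatic cells of the testis. In fish, the FSH receptor is found on Sertoli cells, which nurse the germ cells, and in several species also on the steroid-producing Leydig cells, where the LH receptor is found. Both hormones can therefore drive androgen production, and a direct comparison asks in which transcripts their actions separate.

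The membranes carried 9216 positions in 64 blocks of 144, and the deposited log2 table held values for 8175 clones, which are spotted cDNA fragments. The files do not pair clones with genes, so clones are given by ID, and neither gene lists nor markers of Sertoli, Leydig or germ cells could be counted. The tissue label could not be set against its markers for the same reason. In fragments of whole tissue, fewer cells of a type and less RNA per cell cannot be told apart. The median clone signal of the 24 arrays was between 85 and 171 intensity units, and the share of clone positions above background was between 58.0% and 76.7%. On the first principal component of the 24 arrays, which held 19.2% of the variance, the stages lay apart, from -16.8 to -9.12 in stage I-II and from 9.70 to 14.6 in stage III. Within each stage the hormones overlapped on the first 3 components.

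The hormones differed from each other in few clones and by less than 2-fold. Over both stages, 24 of 8175 clones (0.294%) differed between FSH and LH at a limma adjusted p under 0.05, 8 higher with FSH (0.0979%) and 16 lower (0.196%). The differences of the 8 ran from 1.32-fold to 1.83-fold with a median of 0.58 on the log2 scale. Those of the 16 ran from -0.59 to -0.36 on the log2 scale with a median size of 0.45. Over all 8175 clones the median difference was -0.0042 with an SD of 0.16, and no clone differed 2-fold or more. Without adjustment, 1277 clones had p under 0.05, where 409 would be counted if no clone differed. All 24 clones had the same sign at both stages, which their choice over both stages favours. On 18 of them all 12 FSH arrays lay beyond the LH mean of their stage, and the fewest on any clone was 10. The choice of the clones on these same arrays favours that too, so it describes them and is not separate evidence. With 6 arrays per group, the number of arrays limits the precision. That a clone missed the threshold does not show that the hormones acted alike on it.

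The 8 clones higher with FSH were for the most part clones that FSH raised above the cultured control. FSH raised 7 of the 8 over Ctrl, set against 1.79% of all clones, while LH raised 2 of the 8 and lowered 1, set against 2.41% and 2.08% of all clones. The 2 comparisons with Ctrl share the Ctrl arrays and the hormone arrays that defined the list, so these counts describe the 8 clones and are not separate evidence. For 5 of the 8, only FSH passed the test against Ctrl.

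Clone tcbk0035.l.03 had the greatest difference of the 24. In stage I-II its lowest, median and highest log2 values were 9.47, 9.90 and 10.25 with FSH, 8.08, 9.06 and 9.34 with LH, and 8.72, 8.98 and 9.15 in Ctrl. In stage III they were 8.45, 8.87 and 9.37 with FSH, 7.78, 7.94 and 8.31 with LH, and 7.25, 7.81 and 7.99 in Ctrl. Every FSH array lay above every LH and every Ctrl array of its stage, and the LH and Ctrl arrays overlapped. Over both stages tcbk0035.l.03 was 1.83-fold higher with FSH than with LH, a log2 difference of 0.87 ± 0.12 (SE, 12 arrays against 12; limma adjusted p = 0.00027). It rose by 1.00 on the log2 scale with FSH against Ctrl (limma adjusted p = 3.4e-08), while the value with LH was 0.14 (limma adjusted p = 0.54). The clone was assigned to block P04, where the median clone differed by 0.23 in the same direction. Against Ctrl the median clone of P04 stood at -0.21 with LH and -0.01 with FSH, so the LH value of tcbk0035.l.03 was above its block. With the medians of all blocks made equal, the difference between the hormones was 0.63, beside 0.66 for tcad0009.j.11.

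Clone tcad0009.j.11 had the smallest adjusted p. Its lowest, median and highest values in stage I-II were 7.73, 7.95 and 8.51 with FSH, 6.78, 7.23 and 7.49 with LH, and 6.97, 7.40 and 7.52 in Ctrl. In stage III they were 7.47, 7.63 and 7.96 with FSH, 6.62, 6.995 and 7.21 with LH, and 6.37, 6.78 and 7.21 in Ctrl. Here too the FSH arrays stood clear of both other groups at both stages. The log2 difference from LH was 0.73 ± 0.10 (SE; 95% interval 0.53 to 0.93; limma adjusted p = 0.00013). FSH raised the clone by 0.77 over Ctrl (limma adjusted p = 2.8e-07), and LH differed from Ctrl by 0.03 (limma adjusted p = 0.88). Its block, J01, had a median difference of 0.001. The differences of the spots next to it are not given here.

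Clone tcay0004.j.03 separated the hormones completely at both stages as well. In stage I-II the FSH arrays ran from 7.98 through a median of 8.20 to 8.25, the LH arrays from 7.46 through 7.80 to 7.97, and the Ctrl arrays from 7.45 through 7.81 to 7.93. In stage III the FSH arrays ran from 7.89 through 8.09 to 8.22, the LH arrays from 7.37 through 7.52 to 7.81, and the Ctrl arrays from 7.52 through 7.68 to 7.90. The gap between the hormones was narrow at each stage, and the lowest FSH array lay within the Ctrl range in stage III. The log2 difference was 0.47 ± 0.08 (SE; limma adjusted p = 0.00094), with a rise of 0.39 over Ctrl with FSH (limma adjusted p = 0.00048) and a value of -0.08 with LH (limma adjusted p = 0.58). The position assigned to tcay0004.j.03 touches a spot over 4 times brighter, and the part of that spot's signal in the result was not tested. Of all clones, 3 (0.0367%) had FSH arrays above all LH arrays at both stages, and they are tcbk0035.l.03, tcad0009.j.11 and tcay0004.j.03. Within a single stage this held for 4 of the 8 clones at stage I-II, where 0.294% of all clones had it, and for 5 at stage III, where 0.416% had it.

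Clone 1rt83h14_d_d07 responded to both hormones and more to FSH. Its stage I-II arrays had lowest, median and highest values of 7.51, 8.15 and 8.42 with FSH, 7.16, 7.25 and 7.60 with LH, and 6.07, 6.41 and 6.70 in Ctrl. In stage III the values were 7.10, 7.24 and 7.55 with FSH, 6.08, 6.79 and 7.04 with LH, and 5.71, 6.48 and 6.62 in Ctrl. The 3 groups were ordered Ctrl, LH and FSH in their medians at both stages. FSH and LH overlapped in stage I-II and were apart in stage III. The difference between the hormones was 0.69 ± 0.11 in log2 units (SE; limma adjusted p = 0.00076), with rises over Ctrl of 1.32 for FSH (limma adjusted p = 1.3e-10) and 0.63 for LH (limma adjusted p = 0.00088). The spot was above background on 4 of 6 Ctrl arrays in stage I-II and 3 of 6 in stage III, and it touches a spot over 4 times brighter, whose part was not tested. Clone tcad0009.m.08 followed the same order, with a rise of 1.27 over Ctrl with FSH (limma adjusted p = 1.9e-10) and of 0.76 with LH (limma adjusted p = 3.9e-05), and a difference between the hormones of 0.51 ± 0.10 (SE; limma adjusted p = 0.021). Its FSH arrays ran from 9.44 to 10.07 in stage I-II, where LH ran from 8.81 to 9.38, and from 8.22 to 9.15 in stage III, where LH ran from 8.08 to 8.52. The medians of tcad0009.m.08 were 9.65 with FSH, 9.20 with LH and 8.20 in Ctrl at the earlier stage and 8.75, 8.24 and 7.75 at the later one. The hormones were apart in stage I-II and overlapped in stage III.

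Clones 1rt41k06_c_f03 and tcbp0001.g.12 rose with FSH and not, by the test, with LH. In stage I-II 1rt41k06_c_f03 ran from 10.34 through a median of 10.77 to 10.99 with FSH, from 9.89 through 10.06 to 10.63 with LH, and from 10.12 through 10.23 to 10.54 in Ctrl. In stage III it ran from 10.09 through 10.19 to 10.66 with FSH, from 9.39 through 9.73 to 9.98 with LH, and from 9.22 through 9.50 to 9.73 in Ctrl. A single LH array at stage I-II reached into the FSH range, and in stage III the hormones did not overlap. The log2 difference of 1rt41k06_c_f03 was 0.58 ± 0.10 (SE; limma adjusted p = 0.0022), and FSH stood 0.63 over Ctrl (limma adjusted p = 1.5e-05). For tcbp0001.g.12 the FSH arrays ran from 6.70 through 7.15 to 7.58 and the LH arrays from 6.03 through 6.58 to 7.11 in stage I-II, with Ctrl from 6.73 through 6.84 to 6.92. In stage III they ran from 6.50 through 6.97 to 7.31 with FSH, from 6.02 through 6.37 to 6.75 with LH and from 5.95 through 6.22 to 6.50 in Ctrl. The hormones overlapped at both stages. The log2 difference of tcbp0001.g.12 was 0.57 ± 0.13 (SE; limma adjusted p = 0.036) and it was called higher with FSH than in Ctrl (limma adjusted p = 0.0076). No stage III Ctrl array had this spot above background, and 4 of 6 LH arrays did, so that against Ctrl in stage III a bound alone can be given. In the image signal FSH was there at least 1.32-fold higher than Ctrl, from the FSH mean of 6.78 against the Ctrl mean of 6.15 raised on each array to the lowest clone above background. Its call was lost in the image signal of the scanner exports (limma adjusted p = 0.10) and with the level of the control spots as a covariate (limma adjusted p = 0.14).

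Clone 1rt88o17_a_h09 was the exception among the 8, as FSH did not pass against Ctrl and LH was lower. Its log2 difference from Ctrl was -0.51 with LH (limma adjusted p = 0.0035), and -0.11 with FSH (limma adjusted p = 0.87). This spot was near background, above it on 2 of 6 LH arrays in stage I-II and 3 of 6 in stage III, on 3 of 6 FSH arrays in stage I-II and on 3 of 6 Ctrl arrays in stage III. The log values are therefore imprecise. The difference between the hormones was 0.40 ± 0.09 (SE; limma adjusted p = 0.049), the closest to the threshold of the 24. The clone was assigned to block P03, where the median clone differed by 0.23 between the hormones and by -0.253 between LH and Ctrl. With the medians of all blocks made equal, the difference of 1rt88o17_a_h09 was 0.16 and no longer passed (limma adjusted p = 0.27).

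**Figure D1:**
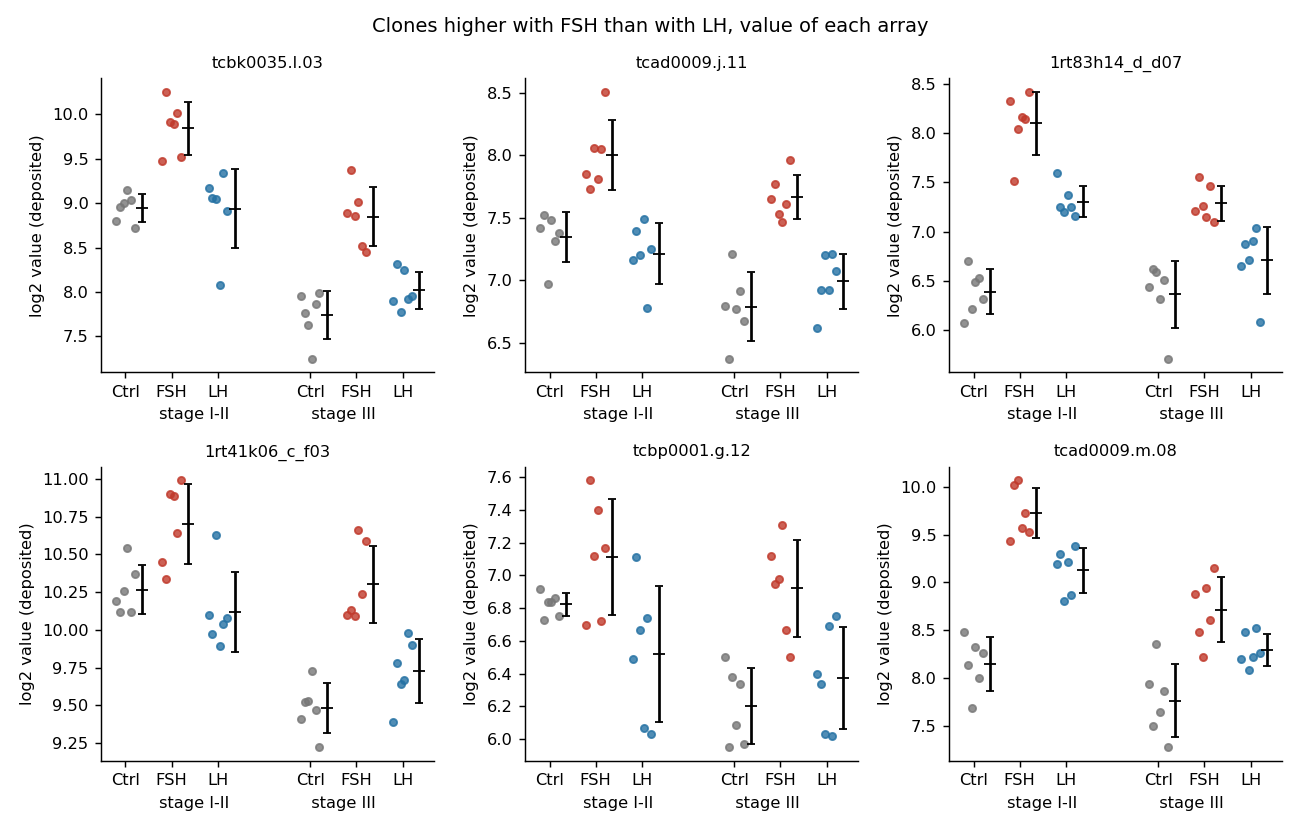
Deposited log2 value of each array (points) for the 6 clones with the greatest differences among those higher with FSH, by stage and treatment, with the mean and SD of 6 arrays beside each group. For tcbk0035.l.03 and tcad0009.j.11 all FSH points lie above all LH points at both stages, and for 1rt83h14_d_d07 and tcad0009.m.08 the LH points lie between Ctrl and FSH in their medians.

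The 16 clones lower with FSH than with LH fell into 3 kinds when set beside Ctrl. FSH lowered 6 of them below Ctrl and raised none, while LH raised 6 others above Ctrl and lowered 1. Of all clones, FSH lowered 1.05% and LH raised 2.41%. A further 4 of the 16 passed against Ctrl with neither hormone, so that the hormones differed from each other and not, by the test, from the control. As above, these comparisons share arrays with the one that chose the clones and add no separate evidence.

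Among the clones lowered by FSH, tcay0027.n.15 had the greatest difference between the hormones. In stage I-II it ran from 8.84 through a median of 9.42 to 9.54 with FSH, from 9.54 through 9.78 to 10.06 with LH, and from 9.81 through 10.02 to 10.28 in Ctrl. In stage III it ran from 9.01 through 9.65 to 9.79 with FSH, from 9.96 through 10.19 to 10.45 with LH, and from 9.61 through 10.20 to 10.47 in Ctrl. The highest FSH array equalled the lowest LH array in stage I-II, and the hormones were apart in stage III. The log2 difference was -0.59 ± 0.10 (SE; limma adjusted p = 0.0019). FSH lowered tcay0027.n.15 below Ctrl with a log2 change of -0.67 (limma adjusted p = 7.6e-06), and LH gave -0.08 (limma adjusted p = 0.69).

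Clone tcam0001.o.09 was also lowered by FSH. Its lowest, median and highest values were 9.05, 9.63 and 9.80 with FSH, 9.86, 9.98 and 10.10 with LH and 10.12, 10.52 and 10.71 in Ctrl at stage I-II. At stage III they were 9.07, 9.48 and 9.86 with FSH, 9.87, 10.15 and 10.37 with LH and 9.77, 10.02 and 10.28 in Ctrl. All FSH arrays lay below all LH arrays at both stages, by a narrow margin in stage III. All LH arrays lay below all Ctrl arrays in stage I-II, while in stage III the LH median stood above that of Ctrl. The log2 difference was -0.58 ± 0.10 (SE; limma adjusted p = 0.0019), with -0.78 for FSH against Ctrl (limma adjusted p = 7.1e-07) and -0.20 for LH (limma adjusted p = 0.27). Clone tcam0002.g.21, from a library with the same prefix, was below Ctrl with both hormones, at -0.86 with FSH (limma adjusted p = 3.0e-09) and -0.44 with LH (limma adjusted p = 0.0021), and its difference between them was -0.42 ± 0.09 (SE; limma adjusted p = 0.036). The table holds 9 clones with the prefix tcam. Their differences ran from -0.58 to -0.015, all below 0, and the 2 named were called, where 0.196% of all clones were called lower. The prefix was not part of the rule that named clones, so these counts describe the 9 and are not separate evidence. All 9 were assigned to the line lettered G of blocks G02, G04, I02 and I04, so they are not spread over the whole membrane. Of all clones in these blocks, 73.3% in G02, 87.4% in G04, 55.0% in I02 and 58.1% in I04 were below 0. The part of these block shifts was not tested. In the image signal neither tcam clone was called (limma adjusted p = 0.14 for tcam0001.o.09 and 0.11 for tcam0002.g.21).

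Clones tcad0003.b.23 and 1rt134e06_c_c03 were also lowered by FSH with no call for LH. The first stood at -0.65 with FSH (limma adjusted p = 4.8e-05) and -0.18 with LH against Ctrl (limma adjusted p = 0.35), and its medians were 8.87 with FSH, 9.36 with LH and 9.42 in Ctrl at the earlier stage and 8.85, 9.37 and 9.68 at the later one. The second stood at -0.53 with FSH (limma adjusted p = 0.00059) and -0.12 with LH (limma adjusted p = 0.52), with medians of 7.36, 7.84 and 7.85 at the earlier stage and 7.36, 7.67 and 7.89 at the later one. In both the LH median was close to the Ctrl median at stage I-II and between FSH and Ctrl at stage III. Their differences between the hormones were -0.47 ± 0.10 for tcad0003.b.23 (SE; limma adjusted p = 0.029) and -0.40 ± 0.09 for 1rt134e06_c_c03 (SE; limma adjusted p = 0.029). The second touches a spot over 4 times brighter and lost its call with equal block medians (limma adjusted p = 0.068).

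Clone tcay0006.p.19 was lowered by FSH, and LH did not pass against the control. In stage I-II it ran from 7.48 through a median of 7.74 to 7.91 with FSH, from 8.04 through 8.23 to 8.46 with LH, and from 7.75 through 7.81 to 8.04 in Ctrl. In stage III it ran from 6.78 through 7.14 to 7.34 with FSH, from 7.41 through 7.64 to 7.78 with LH, and from 7.26 through 7.67 to 7.74 in Ctrl. The hormones were apart at both stages. The control range met both hormones at each stage. In stage I-II the FSH median was close to that of Ctrl and the LH median was higher. In stage III the LH median was close to that of Ctrl and the FSH median was lower. The log2 difference was -0.52 ± 0.08 (SE; limma adjusted p = 0.00076), and against Ctrl FSH gave -0.31 (limma adjusted p = 0.021) and LH 0.21 (limma adjusted p = 0.13). Of all clones, 2 (0.0245%) had FSH arrays below all LH arrays at both stages, tcam0001.o.09 and tcay0006.p.19. Within a single stage this held for 4 of the 16 clones at stage I-II, where 0.465% of all clones had it, and for 7 at stage III, where 0.391% had it. Clone tcay0006.p.19 lost its call in the image signal (limma adjusted p = 0.28). It touches tcay0006.p.04, another of the 16, which was called over both stages (limma adjusted p = 0.036) and was above background on 4 of 6 LH arrays at each stage, on 4 of 6 FSH arrays in stage I-II and on none in stage III. No fold is given for tcay0006.p.04, since in stage III its LH mean in the image signal did not exceed the lowest level above background.

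Clone 1rt104l03_b_f02 passed against Ctrl with neither hormone and yet differed between them. Its values ran from 6.50 through a median of 6.91 to 7.20 with FSH, from 7.20 through 7.60 to 7.77 with LH, and from 6.90 through 7.17 to 7.46 in Ctrl in stage I-II. In stage III they ran from 6.52 through 6.98 to 7.15 with FSH, from 7.32 through 7.42 to 7.59 with LH, and from 6.90 through 7.19 to 7.58 in Ctrl. The hormones met at 1 value in stage I-II and were apart in stage III, with Ctrl between them. The log2 difference was -0.59 ± 0.09 (SE; limma adjusted p = 0.00076), with -0.31 for FSH (limma adjusted p = 0.062) and 0.28 for LH (limma adjusted p = 0.070) against Ctrl. The others of this kind were tcay0006.p.04, 1rt1d11 at -0.41 ± 0.09 (SE; limma adjusted p = 0.040) and tcad0003.h.12 at -0.36 ± 0.08 (SE; limma adjusted p = 0.029). All 4 were assigned to block G04. Against Ctrl 1rt1d11 stood at -0.07 with FSH (limma adjusted p = 0.93) and 0.34 with LH (limma adjusted p = 0.076). Its stage I-II median was 11.18 in Ctrl, below 11.425 with FSH and 11.725 with LH, so there Ctrl did not lie between the hormones. With equal block medians 1rt1d11 and tcad0003.h.12 lost their calls (limma adjusted p = 0.066 and 0.056). In the image signal the values were -0.12 for tcay0006.p.04 and -0.14 for tcad0003.h.12, neither called (limma adjusted p = 0.62 and 0.46). With all 36 cultured arrays in the fit tcay0006.p.04 and 1rt1d11 were not called (limma adjusted p = 0.11 and 0.075).

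Among the 16 clones, those raised by LH did not pass against Ctrl with FSH. Clone tcbk0006.c.09 ran from 8.71 through 8.97 to 9.21 with LH, from 8.11 through 8.44 to 8.65 with FSH and from 8.21 through 8.50 to 8.83 in Ctrl in stage I-II. In stage III it ran from 8.86 through 9.25 to 9.44 with LH, from 8.33 through 8.72 to 9.46 with FSH and from 8.22 through 8.85 to 9.64 in Ctrl. The hormones were apart in stage I-II, while in stage III the highest FSH array stood above all LH arrays. Its difference was -0.51 ± 0.11 (SE; limma adjusted p = 0.026), with 0.38 for LH against Ctrl (limma adjusted p = 0.049) and -0.12 for FSH (limma adjusted p = 0.86). Clone 1rt129o10_c_h05 ran from 9.83 through 10.15 to 10.33 with LH, from 9.32 through 9.55 to 9.97 with FSH and from 8.94 through 9.73 to 9.87 in Ctrl in stage I-II. In stage III it ran from 9.84 through 10.22 to 10.58 with LH, from 9.35 through 9.60 to 10.08 with FSH and from 9.34 through 9.88 to 10.30 in Ctrl. The hormones overlapped at both stages. The difference of 1rt129o10_c_h05 was -0.49 ± 0.10 (SE; limma adjusted p = 0.023), with 0.44 for LH (limma adjusted p = 0.021) and -0.05 for FSH (limma adjusted p = 0.95) against Ctrl.

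Clone tcay0031.f.09 was the brightest of the clones raised by LH, with medians of 11.29 with LH, 10.65 with FSH and 10.67 in Ctrl at the earlier stage and 11.21, 10.75 and 10.77 at the later one. LH raised it by 0.50 over Ctrl (limma adjusted p = 0.00069), FSH gave 0.01 (limma adjusted p = 0.99), and the hormones differed by -0.49 ± 0.09 (SE; limma adjusted p = 0.0084). In the image signal the difference of tcay0031.f.09 was -0.22 and not called (limma adjusted p = 0.13), and with the control level as a covariate it was not called either (limma adjusted p = 0.076). Clone tcay0035.p.11 had the greatest rise with LH of the 16, at 0.63 over Ctrl (limma adjusted p = 3.8e-05) beside 0.21 with FSH (limma adjusted p = 0.47). By its assigned position it touches tcay0035.o.01, which rose by 0.35 with LH (limma adjusted p = 0.020). The 2 clones are therefore not taken as separate observations of a response. Their differences between the hormones were -0.42 ± 0.10 for tcay0035.p.11 (SE; limma adjusted p = 0.040) and -0.40 ± 0.09 for tcay0035.o.01 (SE; limma adjusted p = 0.036), and neither was called in the image signal (limma adjusted p = 0.53 and 0.65). Clone tcbi0009.e.16 rose by 0.33 with LH (limma adjusted p = 0.015) and differed between the hormones by -0.37 ± 0.08 (SE; limma adjusted p = 0.036). Its call was lost with equal block medians (limma adjusted p = 0.070). The clones raised by LH were assigned to blocks whose median of LH minus Ctrl was also above 0. It was 0.14 in D03 (tcay0035.p.11 and tcay0035.o.01), 0.145 in F04 (tcbi0009.e.16) and 0.11 in E03 (tcbk0006.c.09). In G03 (tcay0031.f.09) it was 0.093 and in G01 (1rt129o10_c_h05) 0.049. The part of these block shifts in the rises was not tested.

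**Figure D2:**
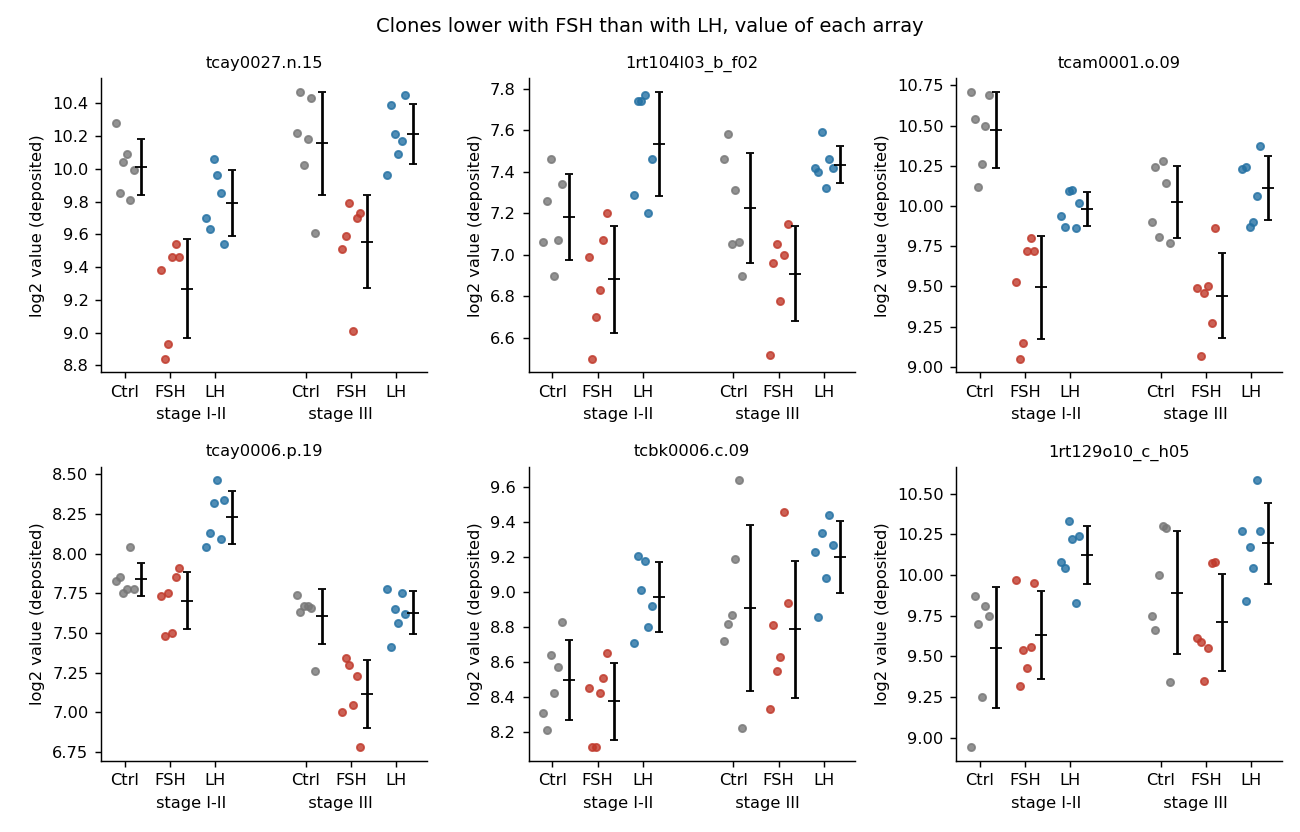
Deposited log2 value of each array (points) for the 6 clones with the greatest differences among those lower with FSH, by stage and treatment, with the mean and SD of 6 arrays beside each group. The FSH points of tcay0027.n.15 and tcam0001.o.09 lie below most Ctrl points, while for tcbk0006.c.09 and 1rt129o10_c_h05 FSH and Ctrl points overlap and the LH medians are higher.

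**Figure D3:**
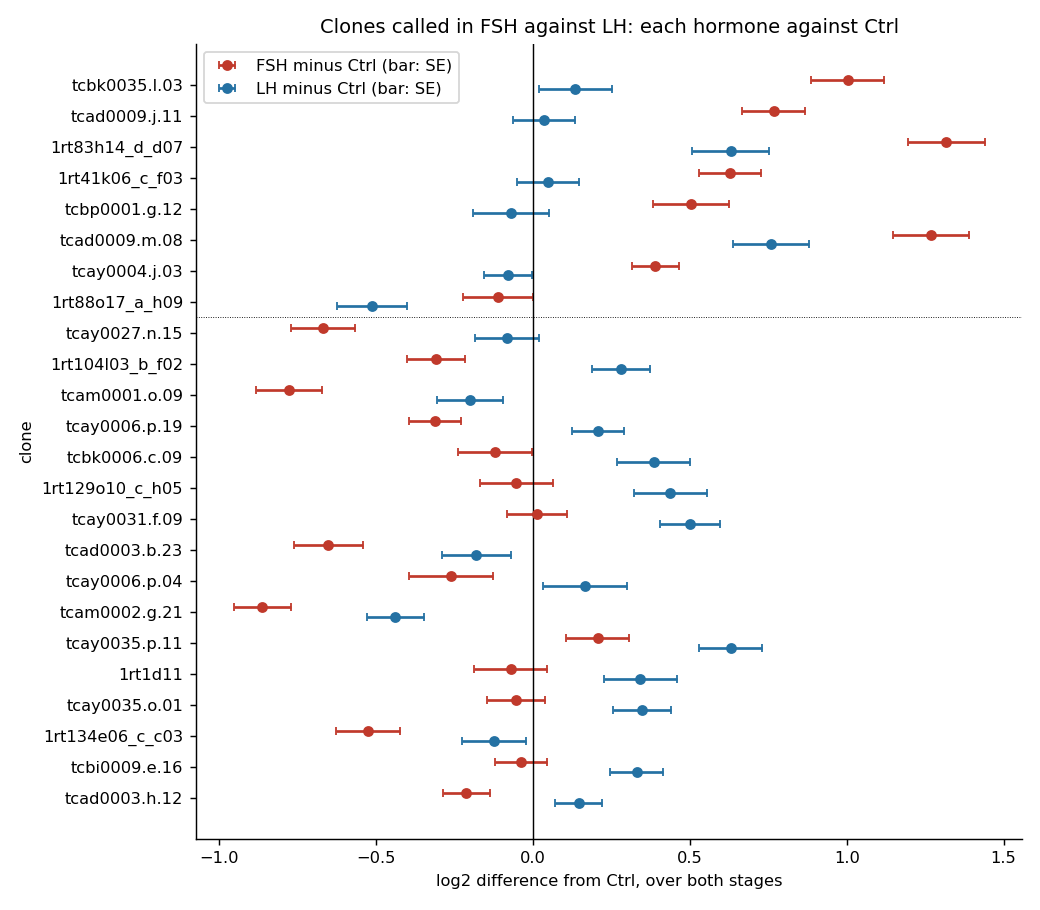
Log2 difference from Ctrl over both stages with FSH (red) and with LH (blue) for the 24 clones that differed between the hormones, with bars of 1 SE, and a dotted line between the 8 clones higher and the 16 lower with FSH. FSH stands to the right of LH above the line and to the left below it by the choice of clones, and 7 of the 8 upper clones have FSH values from 0.39 to 1.32 while 5 of the 8 have LH values between -0.08 and 0.14.

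The threshold cut through a run of close values. On its inner side stood 1rt88o17_a_h09 and, among the lower clones, 1rt1d11 and tcay0035.p.11, described above. On the outer side stood 1rt32d13_b_b07 with a difference of -0.43 and tcac0005.g.18 with -0.37, both at a limma adjusted p of 0.0501.

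The position on the membrane moved with the direction of the difference. The median of FSH minus LH over the clones of a block ran from -0.149 in block G04 (127 clones) to 0.234 in block P03 (125 clones), with an SD over the 64 block medians of 0.0816. In G04 87.4% of clones were lower with FSH, and in P03 2.40% were. All 16 lower clones were assigned to blocks with a median below 0, and 5 of them to G04 alone. Such a median was found in 34 of the 64 blocks. Of the 8 higher clones, 7 were in blocks with a median above 0, which include J01 at 0.001 and J02 at 0.0025. Block G04 held 127 of the 8175 clones, and the shares of all clones in the other sets of blocks were not counted. The difference of a clone contains the shift of its block, which favours these counts. Against Ctrl the block median of LH minus Ctrl was 0.128 in G04 and -0.253 in P03, while that of FSH minus Ctrl was -0.018 and -0.015. In G02, with a median of -0.123 between the hormones, FSH minus Ctrl was -0.062 and LH minus Ctrl 0.031. The SD over the 64 block medians was 0.0498 for FSH minus Ctrl and 0.104 for LH minus Ctrl.

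With the medians of all blocks made equal on every array, 19 of the 24 clones were still called, 7 of the 8 higher and 12 of the 16 lower, and their directions were unchanged. In that setting 96 clones were called in all, 45 higher and 51 lower with FSH, spread over 47 blocks. The image signal of the scanner exports called 6 of the 8 and 6 of the 16, among 69 in all.

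**Figure D4:**
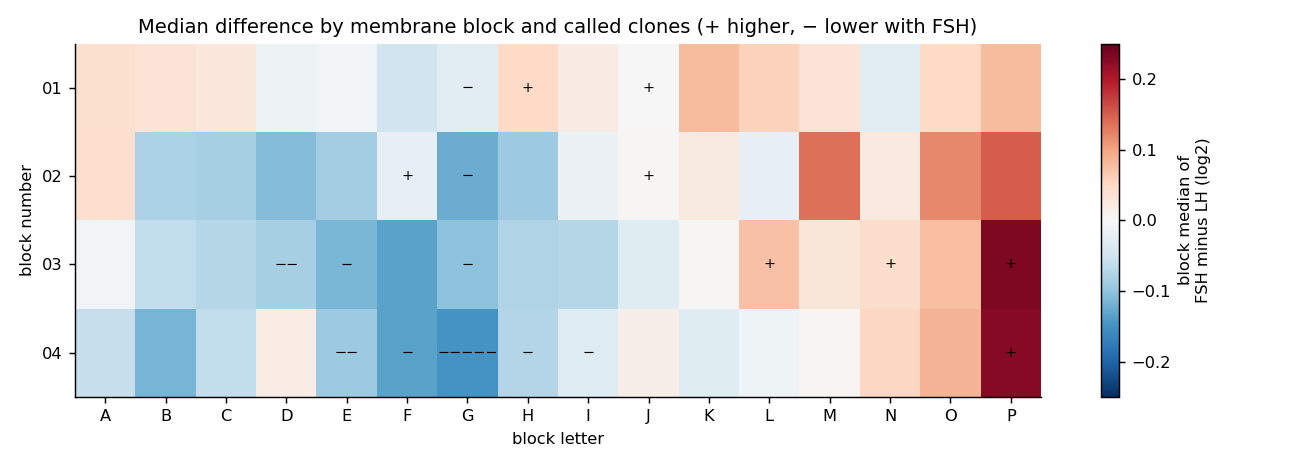
Map of the 64 membrane blocks by letter and number, coloured by the block median of the log2 difference FSH minus LH, with a plus or minus sign for each of the 24 clones in its assigned block. Blue blocks lie mostly at letters B to H and the deepest red ones at P, where block medians reach 0.234, and the minus signs lie in blue blocks.

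The bright control positions differed between the hormones at 1 stage. Their median signal in stage I-II was 199 ± 25.3 intensity units with FSH (178 to 236.5) and 124.5 ± 18.4 with LH (103.5 to 148; SD, n = 6 each), without overlap, in an exact two-sided permutation test with p = 0.0022 (0.0173 after Benjamini-Hochberg adjustment over 8 tests of array measures). The stage I-II Ctrl arrays stood above both, at 285 ± 69.9 (231.5 to 420; SD, n = 6), the lowest of them overlapping the FSH range. In stage III it was 127 ± 21.9 with FSH and 131 ± 31.5 with LH (SD, n = 6 each; exact permutation p = 0.79), beside 120 ± 25.2 in Ctrl. The median clone signal was 153 ± 15.3 with FSH and 135 ± 21.0 with LH in stage I-II (exact permutation p = 0.13, n = 6 each). With the control level as a covariate in the limma fit, 12 clones were called, and 11 of the 24 were among them, 6 higher and 5 lower with FSH. In stage I-II the control level did not overlap between the hormones, so there the covariate and the hormone cannot be told apart. A call lost in this setting therefore does not show that a clone depends on the control level.

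No change of the hormone difference with stage was detected over all clones. Of all clones, 0 (0%) had a limma adjusted p under 0.05 for the difference between stages, with 482 at an unadjusted p under 0.05 where 409 would be counted if no clone differed, and the smallest adjusted p was 0.13. The median SE of that difference was 0.21 on the log2 scale, and a change of 1.04 between the stages, for tcba0015.e.19, did not pass. Changes between the stages of the size seen for the hormones could therefore be missed. The 24 clones were chosen on the mean of both stages, which favours 1 sign at both, so their equal signs say nothing about stage.

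Within stage I-II alone, 3 clones (0.0367%) were called, all higher with FSH and all among the 24. These were tcad0009.j.11 at 0.79 (limma adjusted p = 0.026), 1rt83h14_d_d07 at 0.80 (limma adjusted p = 0.037) and tcbk0035.l.03 at 0.91 (limma adjusted p = 0.046). None was called when the 12 stage I-II arrays were fitted alone. Within stage III, 8 clones (0.0979%) were called, 7 higher (0.0856%) and 1 lower (0.0122%) with FSH. Of these, 3 were among the 24, namely tcay0004.j.03 at 0.54 (limma adjusted p = 0.039), tcad0009.j.11 at 0.68 (limma adjusted p = 0.044) and tcam0001.o.09 at -0.67 (limma adjusted p = 0.044).

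The other 5 stage III clones were not called over both stages, and they are named after their values were seen. Clone tcba0015.e.19 had lowest, median and highest values of 9.66, 10.06 and 10.38 with FSH, 8.81, 9.22 and 9.41 with LH and 9.09, 9.50 and 9.86 in Ctrl in stage III. In stage I-II they were 9.02, 9.46 and 9.57 with FSH, 9.05, 9.58 and 9.86 with LH and 9.13, 9.38 and 10.02 in Ctrl. The hormones were apart in stage III and overlapped in stage I-II. The stage III difference was 0.90 ± 0.14 (SE; limma adjusted p = 0.0050) and the stage I-II value was -0.14 (limma adjusted p = 0.74). The difference between the stages was 1.04 and did not pass over all clones (limma adjusted p = 0.13). With equal block medians it was 0.91 and passed (limma adjusted p = 0.011), as did 1 other clone, tcay0006.a.19, at 0.85 (limma adjusted p = 0.0046, and 0.60 without that step).

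Clones tcbk0031.o.22 at 0.79 (limma adjusted p = 0.0050), tcba0006.a.17 at 0.67 (limma adjusted p = 0.011), 1rt52b16_d_a08 at 0.71 (limma adjusted p = 0.020) and tcbk0056.k.20 at 0.76 (limma adjusted p = 0.044) were the others higher with FSH in stage III. Their stage I-II values lay between -0.0033 and 0.087. By their assigned positions tcbk0031.o.22 and tcbk0056.k.20 touch in block K03, so these are not taken as separate observations of a response. The block medians of FSH minus LH in stage III were 0.062 in K03, 0.053 in N02 (tcba0006.a.17) and 0.127 in M03 (1rt52b16_d_a08). The part of these block shifts was not tested. The stage III medians of tcbk0031.o.22 were 9.21 with FSH, 8.35 with LH and 8.86 in Ctrl, and those of tcba0006.a.17 were 9.25, 8.55 and 8.75, so that Ctrl lay between the hormones. For 1rt52b16_d_a08 the medians were 8.55, 7.84 and 7.95, and for tcbk0056.k.20 they were 9.73, 8.98 and 9.16. The groups overlapped for tcbk0056.k.20, with LH up to 9.51 and FSH from 9.46, and did not for the other 3. Their differences between the stages did not pass (limma adjusted p from 0.60 to 0.67). When the 12 stage III arrays were fitted alone, these 4 lost their calls (limma adjusted p from 0.064 to 0.147) and tcba0015.e.19 was the 1 clone called (limma adjusted p = 0.030).

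**Figure D5:**
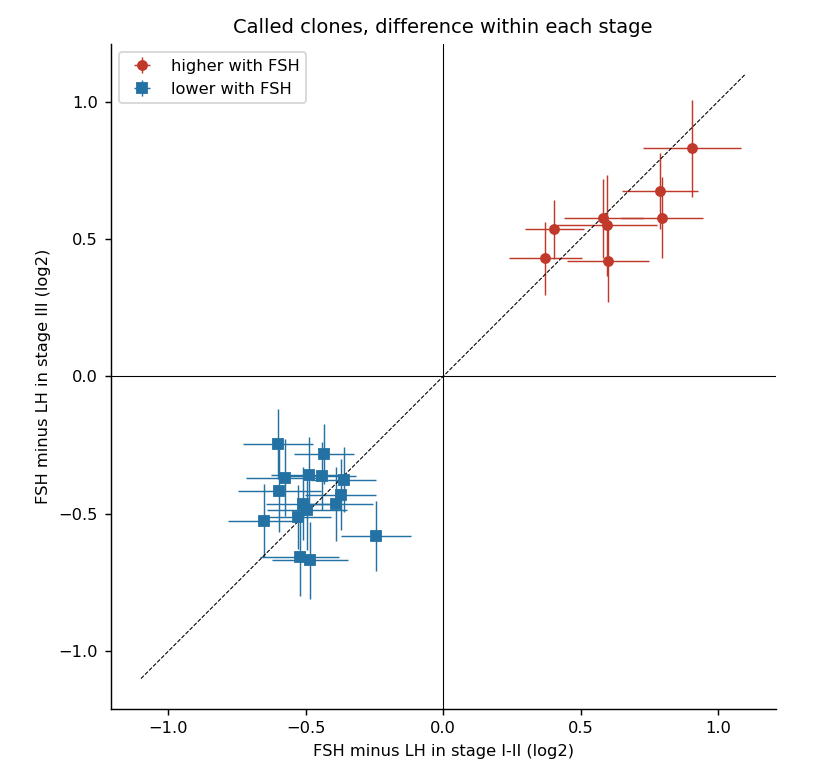
Log2 difference FSH minus LH in stage I-II (horizontal) and in stage III (vertical) for the 24 clones that differed over both stages, with bars of 1 SE and a dashed line of equal difference. All 8 red points lie in the upper right and all 16 blue squares in the lower left, as the choice over both stages favours.

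Some clones that answered strongly to gonadotropins were called between the hormones and others were not. Against Ctrl over both stages, FSH changed 232 clones (2.84%), 146 up and 86 down, and LH changed 367 (4.49%), 197 up and 170 down. In the other settings the FSH count ran from 162 to 356 and the LH count from 129 to 896. The counts therefore do not show which hormone changed more clones. Of the 15 clones that FSH changed 2-fold or more, 3 were called between the hormones, namely 1rt83h14_d_d07, tcad0009.m.08 and tcbk0035.l.03. Of the 9 that LH changed 2-fold or more, 0 were. With 0.294% called over all clones, the 0 of 9 says nothing particular about them. The FSH arrays enter both comparisons, so the 3 of 15 describe these clones and are not separate evidence. Clone tcbk0013.j.13, which had the greatest change with LH, rose 7.97-fold with FSH and 9.12-fold with LH (limma adjusted p = 1.1e-22 and 8.7e-24). Its medians in stage I-II were 10.64 with FSH, 10.88 with LH and 7.38 in Ctrl, and those at the later stage were 9.15, 9.46 and 6.42. The difference between the hormones was -0.19 with a 95% interval from -0.42 to 0.03 (limma adjusted p = 0.41). Clone 1rt34l03_b_f02 rose 8.99-fold with FSH and 7.44-fold with LH, and the hormones differed by 0.27 with an interval from 0.05 to 0.49 (limma adjusted p = 0.23). The highest of its stage I-II Ctrl arrays read 8.93, where the median was 6.86. Both clones differed by less between FSH and LH than either hormone did from Ctrl, which their choice for large changes with both favours.

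These 2 belong to 10 clones that were picked for a response common to both hormones. Between the hormones 0 of the 10 were called, and with 0.294% called over all clones this count says nothing particular about them. Clone 1rt38l12_d_f06 rose 2.78-fold with FSH and 2.44-fold with LH, with a difference of 0.19 (interval -0.02 to 0.40; limma adjusted p = 0.37). Its Ctrl arrays ran from 5.17 to 5.85 in stage I-II and from 5.30 to 5.80 in stage III. These lie below the stage III Ctrl arrays of tcbp0001.g.12 (5.95 to 6.50), of which none was above background. The folds of 1rt38l12_d_f06 over Ctrl are therefore imprecise. Clone tcac0002.e.17 fell with both, with changes of -1.21 with FSH and -1.24 with LH, and a difference of 0.03 (interval -0.17 to 0.24; limma adjusted p = 0.91). Clone tcad0001.l.19 stood at -0.96 with FSH and -0.61 with LH, with a difference of -0.34 (interval -0.61 to -0.08; limma adjusted p = 0.20). Its FSH arrays were as dim, from 5.31 to 5.85 in stage I-II and from 5.24 to 5.85 in stage III, so these values are imprecise too. Clone 1rt113l09_b_f05 rose 2.52-fold with FSH and 2.11-fold with LH, with a difference of 0.25 (interval 0.04 to 0.47; limma adjusted p = 0.25). Clones 1rt113l09_b_f05 and tcac0002.e.17 each touch a spot over 4 times brighter, whose part was not tested. For 3 of the 10, 1rt34l03_b_f02, 1rt113l09_b_f05 and tcad0001.l.19, the interval leaves out 0 and yet none passed over all clones, so these tests do not show that the hormones act alike on them.

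The calls that did not depend on a setting were few. Of the 24, 7 were called in each of the other settings in which they had a value and in each of the 24 fits without 1 array. They were tcbk0035.l.03, tcad0009.j.11, 1rt83h14_d_d07, 1rt41k06_c_f03 and tcay0004.j.03 among the clones higher with FSH, and tcay0027.n.15 and 1rt104l03_b_f02 among the lower ones. Of these, 4 had a value in all 15 other settings and 3 in 14. Clones 1rt83h14_d_d07 and tcay0004.j.03 drop out where clones beside bright spots are left out, and 1rt104l03_b_f02 where the clones of block G04 are. None of the 24 changed sign in any setting. Without 1 array, 10 of the 24 kept their call in each fit and 14 lost it in at least 1, where the highest limma adjusted p was 0.11. The count of calls over both stages was 10 without stage I-II FSH replicate 28, stage III FSH replicate 62 or stage III FSH replicate 63. It was 11 without stage I-II FSH replicate 25, 12 without stage III LH replicate 68, 14 without stage I-II FSH replicate 29 or stage I-II LH replicate 36, and 15 without stage I-II LH replicate 34. It was 37 without stage III LH replicate 67, 38 without stage III FSH replicate 64, 40 without stage I-II FSH replicate 27, 52 without stage I-II FSH replicate 26 and 85 without stage III FSH replicate 65. The 24 clones were all among the 85.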

How the data were processed

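Testis RNA was measured on 42 nylon membranes, 1 sample per array, from 5 µg of total RNA copied into cDNA with radioactive phosphorus, per the labels' protocols. The authors deposited a table of log2 values by clone, its normalization not given in the sources used here. They also deposited 1 AGScan export of spot intensity per array, per the file headers. Of 9216 table entries, 8175 held values and 1041 were empty (64 water, 128 cvu03687 and 849 clones). The deposited log2 values were tested, and 0 other columns of samples were left aside.

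limma 3.58.1 in R 4.3.3 (lmFit, eBayes) was run on 24 arrays with stage as a block for FSH against LH, on the 4 group means for the stages, and on 36 arrays for the hormones against Ctrl. Two-sided p-values were adjusted by Benjamini-Hochberg over 8175 clones and called under 0.05. All adjusted p-values given are from limma. No filter on low values was applied, so all 8175 clones with values were tested.

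Clones were placed on the membrane by matching their deposited log2 profiles to the quantile-normalised log2 image intensity of 9024 positions. The matched position was also the nearest for 93.4% of clones, and the median correlation over arrays was 0.83. The control spots were taken to lie at the same set positions in every block, and these were left out of the match. In a match that offered all positions, 1 clone fell on a control position. The background threshold and the control level rest on this choice. Block and neighbour statements, and the image signal and background counts of a clone, rest on these placements. Some placements were hardly better than the closest other position, by the root mean square difference of the log2 values. It was 0.257 against 0.264 for tcay0035.o.01, 0.296 against 0.305 for tcay0006.p.19 and 0.344 against 0.373 for tcam0001.o.09. A call lost in the image signal can therefore also come from a wrong placement. A spot was above background when its intensity exceeded the median of the dim control positions by 3 scaled median absolute deviations on that array. A touching spot is one of those around it in its block, and a bright one has over 4 times its signal.

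The rule named up to 15 clones higher and 15 lower with FSH by size, with group ranges for the first 6 of each, and 2 on each side of the threshold. The 16th lower clone, tcad0003.h.12, and the clones of single stages were named after their values were seen. So were the clones picked for a response common to both hormones. Taking the tcam clones as a set was likewise no part of the rule. The clones, lists and tests were chosen with earlier results of these data known. None of the clone IDs matched the gene table of assembly USDA_OmykA_1.1, so the gene and marker lists could not be used. On simulated data for FSH against LH over both stages, with 100 clones changed by 0.5 and 100 by 1 on the log2 scale among 8175, 82% and 100% were recovered, with 9 false calls. The noise was drawn separately for each clone and array, without the shifts that clones of a block share. The share recovered also depends on how many clones are changed, so these figures need not hold for the data. The other settings were other normalizations, other moderation, array weights, the image signal, leaving out dim clones or those beside bright spots, control level or export order in the fit, a stricter threshold and leaving out each array.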

Additional observations from a re-analysis of the deposited data

Results flagged for a closer look

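Among 162 groups of 6 arrays checked, 16 had 1 array far from the rest, where chance marks about 1 in 20 groups, and 0 clones moved in opposite directions in the 2 stages on every array.

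For tcbk0035.l.03, stage I-II LH replicate 34 read 8.08, where the other LH arrays read 8.91 to 9.34. The same array read 5.60 for 1rt88o17_a_h09, below 6.04 to 6.22 on the others. For 1rt41k06_c_f03, stage I-II LH replicate 31 read 10.63, above 9.89 to 10.10. For tcay0004.j.03, stage I-II FSH replicate 26 read 7.98, below 8.18 to 8.25, and stage III LH replicate 69 read 7.81, above 7.37 to 7.53. For tcay0027.n.15, stage III FSH replicate 63 read 9.01, below 9.51 to 9.79. For tcac0005.g.18, stage I-II LH replicate 35 read 7.60, below 7.89 to 8.03.

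Stage III Ctrl replicate 55 read 5.71 for 1rt83h14_d_d07 (others 6.32 to 6.62), 7.26 for tcay0006.p.19 (others 7.63 to 7.74) and 10.86 for 1rt1d11 (others 11.70 to 12.20). Stage I-II Ctrl replicate 19 read 8.04 for tcay0006.p.19 (others 7.75 to 7.85), and its bright control positions had a median of 420 intensity units (others 231.5 to 284.5). Stage I-II Ctrl replicate 21 read 10.76 for tcam0002.g.21 (others 10.09 to 10.23) and 8.22 for 1rt134e06_c_c03 (others 7.68 to 7.87). Stage I-II Ctrl replicate 22 read 7.95 for tcay0006.p.04 (others 6.00 to 6.54). Stage I-II Ctrl replicate 24 read 7.88 for tcay0035.o.01 (others 7.19 to 7.32).

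In the image signal, 70 of 9024 clone positions differed between FSH and LH, and 6 of these were among the 849 positions to which no clone was assigned. At 2 of the 6 the LH mean lay above the Ctrl mean at both stages. Position 10 of line L in block P02 gave -0.37 (limma adjusted p = 0.043) and position 8 of line D in block G04 gave -0.32 (limma adjusted p = 0.042), and both touch a spot over 4 times brighter. The position in G04 lies between those assigned to 1rt1d11 and 1rt104l03_b_f02, both called lower with FSH. It is therefore not taken as a separate observation.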

How the results depend on the processing

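The count of clones called between FSH and LH over both stages was 24. It was 37 with all 36 cultured arrays in the fit, 58 with array weights, 69 in the image signal, 37 without clones beside a spot over 4 times brighter, 12 with the control level as covariate, 38 with the export order as a block, 10 at an adjusted p under 0.01 and 96 with equal block medians. The last setting and leaving out the clones of block G04 were chosen after seeing the data. In stage I-II the count of 3 became 6 with all cultured arrays, 0 with the compared arrays alone, 7 among clones at or above the median level, 8 with array weights, 6 in the image signal, 5 without clones beside bright spots, 1 with the covariate, 0 under 0.01 and 10 once block medians were equal. In stage III the count of 8 became 19, 1 and 23 under the first 3 of these, 14 with trended and robust moderation, 31 in the image signal, 22 without clones beside bright spots, 15 with the export order, 2 under 0.01 and 51 with block medians made equal. The difference between stages gave 0 calls except for 2 with equal block medians and up to 1 without 1 array. FSH against Ctrl over both stages (232) gave 356 with equal block medians, and LH against Ctrl over both stages (367) gave 896 with array weights, 129 with the covariate, 642 without the arrays of another export order and 139 under 0.01. Leaving out each array gave 10 to 85 calls over both stages, 0 to 8 in stage I-II and 2 to 12 in stage III, each moving by over 1.5 times without any of 10 and 11 arrays, and 206 to 263 for FSH and 241 (without stage I-II Ctrl replicate 23) to 612 (without stage III Ctrl replicate 58) for LH against Ctrl. The log2 difference of tcac0002.e.17, 0.03 and not called, turned to -0.15 in the image signal and -0.11 with equal block medians. It was -0.0039 without stage III LH replicate 70 and ran from -0.012 (without stage III FSH replicate 65) to 0.067 over the arrays left out. The causes were not tested. No paired analysis was possible because the labels give no pairing between groups. Whether tissue of the same fish was used in several groups is not known, and any such pairing was left out of the fits.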
